A study of Arabidopsis thaliana with 12 samples.

Results

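The genes followed here code for 5 proteins of the plastid ribosome, PRPL5 (AT4G01310), PRPL17 (AT3G54210) and PRPL34 (AT1G29070) of the large subunit and PRPS6 (AT1G64510) and PRPS10 (AT3G13120) of the small subunit. They are the 5 plastid ribosomal protein genes chosen out of 692 array features that the platform annotation pairs with exactly 1 gene, among 3439 features in all, and each is read by a single feature. Total RNA came from Arabidopsis thaliana, wild type, ecotype C24. One group of 6 samples was from plants under PSI light, which mainly excites photosystem I, with no inhibitor. The other group of 6 samples was from plants under PSII light, which mainly excites photosystem II, that were also treated with DCMU, a herbicide that blocks electron transfer from photosystem II to the plastoquinone pool. Light and inhibitor changed together, so their effects cannot be told apart. The labels name no organ, plant age or length of treatment, and 0 of 12 genes listed as markers of green tissue, seed and root had a feature of their own, so the tissue could not be checked.

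Plastids make their own proteins on ribosomes of the bacterial type. Part of the ribosomal proteins is encoded in the plastid genome, and the others, these 5 genes among them, are encoded in the nucleus, made in the cytosol and imported. The plastid ribosome translates core subunits of both photosystems, of the cytochrome b6f complex and of the ATP synthase, as well as the large subunit of Rubisco.

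Samples 1 and 2, 3 and 4, and 5 and 6 of a group behaved as technical pairs (Spearman correlation over all features 0.98 to 0.99 within pairs, 0.92 to 0.97 between pairs of a group). Each pair was averaged to replicate 1, 2 or 3, so n = 3 per group. Separate plants are not recorded in the labels, and p-values here cover only the spread among these samples, possibly a technical one. Intensities are on the linear scale of the deposited table, whose unit is unknown, and the number of arrays limits their precision. The median intensity of a sample was 0.542 to 0.584 under PSI light and 0.632 to 0.687 under PSII light with DCMU. No member lay at or under the floor of 0.0431 set on low intensities in any sample. Levels of different features are not compared, since each has its own brightness scale.

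Of the 5 genes, PRPL5 rose 1.73-fold under PSII light with DCMU and PRPL17 fell, its level being 1.57-fold higher under PSI light. The other 3 did not pass the test (limma, adjusted p under 0.05 over all features). PRPL34 stood 0.26 higher on the log2 scale, PRPS6 at -0.45 and PRPS10 at -0.16. The median change of the 5 was -0.16, beside 0.04 over all features. Among all features 48.5% were called, 26.4% as higher and 22.0% as lower, so 2 called genes of 5 are a share near that of the array as a whole. Replicates that do not overlap between the groups were found for 2 of the 5 genes and for 60.7% of all features. The 1 rise and the 1 fall were both among the large-subunit genes.

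**Figure D1:**
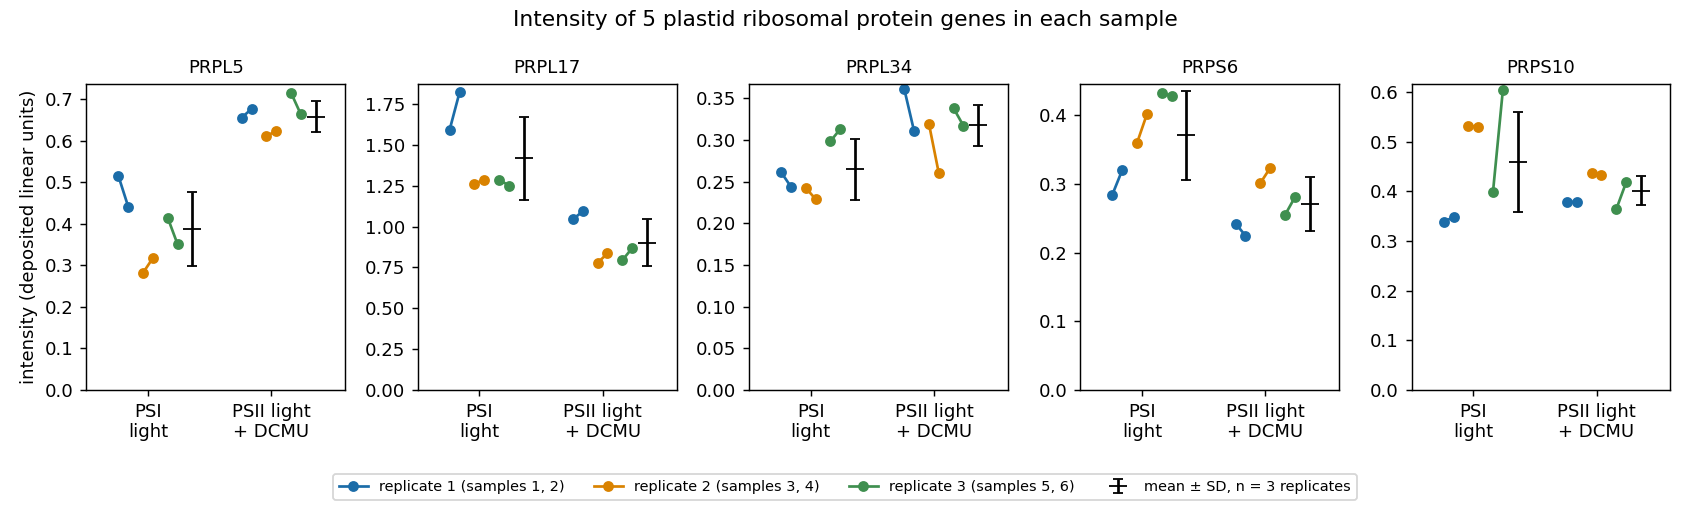
Intensity (vertical axis from 0, deposited linear units, a separate scale for each gene) of the 5 genes in the 12 samples, with the samples of a technical pair joined and the mean ± SD of 3 replicates in black. The groups separate for PRPL5 and PRPL17 and overlap for PRPL34, PRPS6 and PRPS10.

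PRPL5 is the plastid counterpart of the bacterial protein L5, which in Escherichia coli binds the smallest ribosomal RNA in the central protuberance of the large subunit. Under PSI light its intensity ran from 0.282 to 0.515 over the 6 samples, with a median of 0.383. Under PSII light with DCMU it ran from 0.611 to 0.715, with a median of 0.659. Every sample with DCMU was thus above every sample under PSI light, and the PSI samples were spread more widely. The replicates stood at 0.478, 0.300 and 0.383 under PSI light and at 0.666, 0.617 and 0.689 under PSII light with DCMU. The lowest was PSI replicate 2, and the replicates with DCMU lay close together. The mean went from 0.387 ± 0.0892 to 0.657 ± 0.0368 (SD, n = 3). The log2 change was 0.79 ± 0.183 (moderated SE, 95% interval 0.32 to 1.27, limma adjusted p = 0.0217). Within pair numbers 1, 2 and 3 the difference was 0.48, 1.04 and 0.85 on the log2 scale, higher with DCMU in all 3. The call ended after quantile normalization, with a change of 0.49 (adjusted p = 0.0754), and without PSI replicate 3 (0.0558) or PSII_DCMU replicate 1 (0.0710), 2 (0.0567) or 3 (0.0720), within a range of 0.000496 to 0.0754 over 15 alternatives.

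PRPL17 corresponds to the bacterial L17, a large-subunit protein near the exit of the tunnel through which the new protein leaves the ribosome. Its intensity ran from 1.25 to 1.82 under PSI light, with a median of 1.29, and from 0.778 to 1.09 under PSII light with DCMU, with a median of 0.851. The highest sample with DCMU was below the lowest sample under PSI light. Replicates 1, 2 and 3 stood at 1.71, 1.27 and 1.27 under PSI light and at 1.07, 0.807 and 0.830 under PSII light with DCMU. Replicate 1 was the highest in both groups, and the other two were close to each other. The mean went from 1.42 ± 0.252 to 0.902 ± 0.145 (SD, n = 3). The log2 change was -0.65 ± 0.175 (moderated SE, 95% interval -1.10 to -0.20, limma adjusted p = 0.0336). Within pair numbers 1, 2 and 3 the difference was -0.67, -0.66 and -0.61, nearly the same in each. The pair number as a block cannot move the change, since each block holds 1 replicate of each group. It gave a smaller standard error of 0.0389 (limma adjusted p = 0.00953). The call ended with place in the feature order taken out (-0.30, described below) and without PSI replicate 1 (adjusted p = 0.0636), 2 (0.0515) or 3 (0.0538) or PSII_DCMU replicate 2 (0.102) or 3 (0.102), within a range of 0.00245 to 0.229 over 15 alternatives.

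PRPL34 is the plastid form of L34, a short basic protein of the bacterial large subunit. Its samples ran from 0.229 to 0.313 under PSI light (median 0.253) and from 0.260 to 0.361 under PSII light with DCMU (median 0.318). The ranges overlapped: samples 1, 5 and 6 under PSI light were above sample 4 with DCMU. Replicate means were 0.253, 0.236 and 0.306 under PSI light and 0.336, 0.290 and 0.328 under PSII light with DCMU, so that PSI replicate 3 exceeded PSII_DCMU replicate 2. The log2 change was 0.26 ± 0.122 (95% interval -0.05 to 0.58, limma adjusted p = 0.134). Within pair numbers 1, 2 and 3 it was 0.41, 0.29 and 0.10, all higher with DCMU. This direction depended on the scaling, since quantile normalization gave -0.31 ± 0.161 (adjusted p = 0.171). Without PSI replicate 3 the gene passed the test at 0.37 (adjusted p = 0.0372, range over 15 alternatives 0.0372 to 0.906).

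The 2 small-subunit genes were both lower on average with DCMU, and neither passed. PRPS6 corresponds to S6, which in bacteria pairs with another protein on the platform of the small subunit. It ran from 0.284 to 0.432 under PSI light (median 0.380) and from 0.225 to 0.323 under PSII light with DCMU (median 0.267). Its replicates were 0.302, 0.380 and 0.430 under PSI light and 0.233, 0.312 and 0.267 under PSII light with DCMU. The overlap came from PSI replicate 1, which was below PSII_DCMU replicate 2. The log2 change of PRPS6 was -0.45 ± 0.177 (95% interval -0.91 to 0.01, limma adjusted p = 0.0932), and it was -0.37, -0.28 and -0.69 within pair numbers 1, 2 and 3. PRPS6 passed the test under 6 of the 15 alternatives: after quantile normalization (-0.96), with each array centred on its median (-0.67), with the 12 samples fitted with the technical pair as a random block (adjusted p = 0.0240), with place taken out (-0.90), with place and brightness taken out (-1.10), and without PSI replicate 1 (-0.59). The fit to 12 samples takes its degrees of freedom from all 12, though they form 3 replicates per group, so its p-value can come out too low. The adjusted p of PRPS6 ranged from 0.00313 to 0.233. Its change was negative in every one of the 15 alternatives, some of which could not move it.

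PRPS10 corresponds to S10 of the head of the small subunit, a protein that in Escherichia coli also takes part in the control of transcription. It ran from 0.339 to 0.604 under PSI light (median 0.464) and from 0.364 to 0.437 under PSII light with DCMU (median 0.399). The samples with DCMU lay inside the range of the PSI samples. Replicates stood at 0.344, 0.531 and 0.501 under PSI light and at 0.379, 0.435 and 0.391 under PSII light with DCMU. PSI samples 5 and 6, a technical pair, read 0.399 and 0.604, a difference of 0.60 on the log2 scale, while the other technical pairs of this gene differed by at most 0.20. The log2 change was -0.16 ± 0.186 (95% interval -0.64 to 0.32, limma adjusted p = 0.529). It was 0.14 within pair number 1 and -0.29 and -0.33 within pair numbers 2 and 3, so its direction was not shared by the pairs. PRPS10 passed the test after quantile normalization (-0.59, adjusted p = 0.0388) and without PSI replicate 1 (-0.35, adjusted p = 0.0420), in a range of 0.0388 to 0.926 over 15 alternatives.

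**Figure D2:**
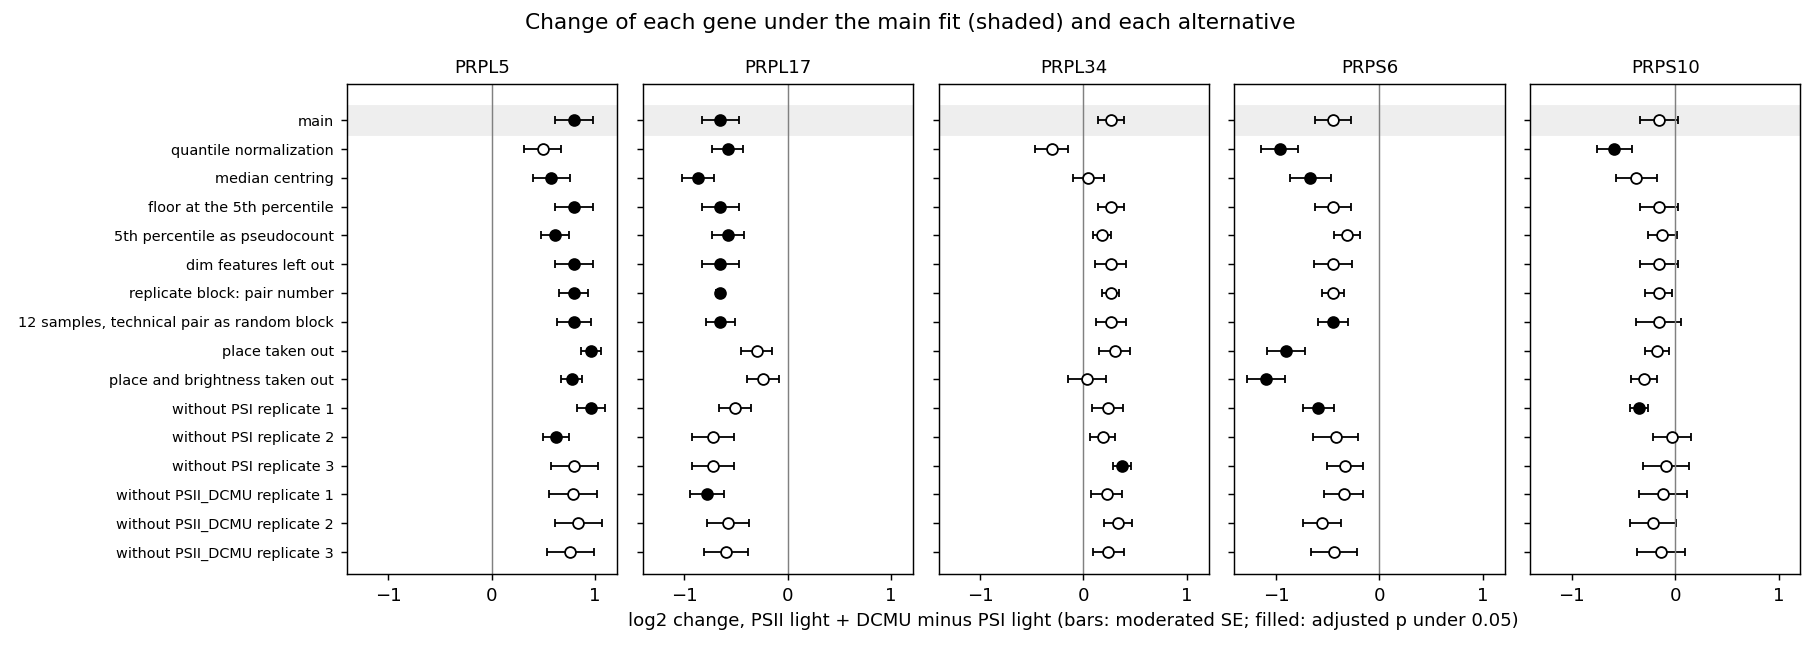
Log2 change (horizontal axis, PSII light with DCMU minus PSI light, with the moderated SE) of each gene under the fit as reported, in the shaded band, and under 15 alternatives listed on the vertical axis; filled points have an adjusted p under 0.05. PRPL5 is above 0 and PRPL17 and PRPS6 are below 0 throughout, while PRPL34 changes sign after quantile normalization.

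Centring each array on its median moved every feature's change by the same amount, and the median over all features from 0.04 to -0.18. The change of PRPL34 was then 0.05 and that of PRPS10 -0.38. Quantile normalization moved the median to -0.05, and it moved the 5 genes by unequal amounts, PRPL17 upwards and the other 4 downwards. Measured from the median of all features, the changes of PRPL5, PRPL17, PRPL34, PRPS6 and PRPS10 were 0.75, -0.69, 0.23, -0.49 and -0.20 for the deposited intensities. Following quantile normalization they were 0.54, -0.53, -0.26, -0.91 and -0.54. PRPL5 was thus above and PRPL17, PRPS6 and PRPS10 were below the array's median change with both, and PRPL34 was above it with the first only. The median change also differed between classes of brightness (10 classes, deposited intensities). Over the other features in the class of each gene it was 0.27, -0.24, 0.65, 0.54 and 0.27, in the same order. PRPL5 was above the median of its class, and the other 4 genes, PRPL34 included, were below theirs.

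The changes of the members were also compared within the same arrays, as ratios of 2 genes, which a scaling factor common to an array does not alter. Quantile normalization and the corrections for place and brightness do alter them. The log2 ratio of PRPL5 to PRPL17 was 1.44 ± 0.163 higher under PSII light with DCMU than under PSI light (SE, n = 3). The ratio of PRPL5 to PRPS6 was 1.24 ± 0.348 higher, that of PRPL5 to PRPS10 0.95 ± 0.395 higher and that of PRPL5 to PRPL34 0.53 ± 0.198 higher. The ratio of PRPL34 to PRPS6 was 0.71 ± 0.224 higher, and that of PRPL17 to PRPL34 changed by -0.91 ± 0.224. Each of these 6 ratios gave p = 0.1 in a two-sided exact permutation test, the smallest that 3 against 3 replicates can give, and an adjusted p of 0.167 over the 10 pairs compared, so none could pass. This test differs from the limma fit behind the calls of single genes. For single genes the exact p was 0.1 for PRPL5 and PRPL17, 0.2 for PRPL34 and PRPS6 and 0.5 for PRPS10. Over 15 alternatives the difference for PRPL5 over PRPL17 was 1.01 to 1.56, and that for PRPL17 over PRPL34 was -1.09 to -0.27, with -0.27 both after quantile normalization and with place and brightness taken out. The 4 other ratios gave exact p from 0.2 to 0.6. Among them, PRPL17 and PRPS6 differed in their change by -0.20 ± 0.376, with either sign over the alternatives (-0.43 to 0.86), and PRPS6 and PRPS10 by -0.29 ± 0.118.

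**Figure D3:**
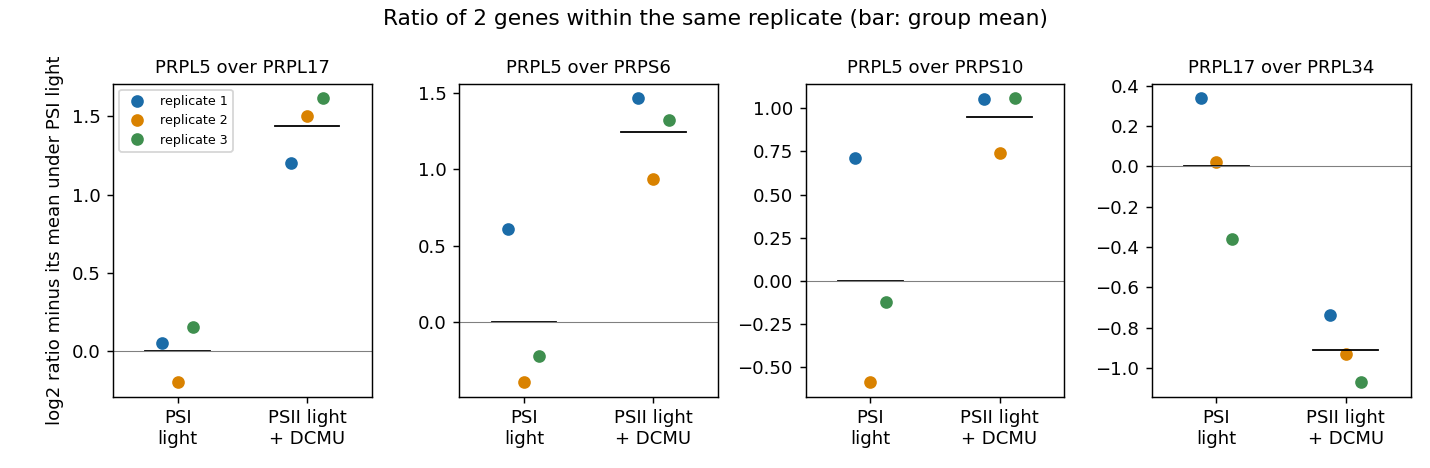
Log2 ratio of 2 genes in each of the 3 replicates per group, less its mean under PSI light (vertical axis, a separate scale for each panel), with a bar at the group mean. The 3 ratios with PRPL5 on top are higher, by 0.95 to 1.44, and the ratio of PRPL17 to PRPL34 is lower, by 0.91, under PSII light with DCMU.

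Replicates differed in a way that the members shared in part. Replicate 1 held the lowest value of both small-subunit genes in both groups and the highest value of PRPL17 in both groups. For PRPL5, replicate 2 was the lowest in both groups. Under PSI light, replicate 1 of PRPS10 was 0.38 below its group mean on the log2 scale, and replicate 1 of PRPL5 was 0.33 above its own. Deviations of PRPL5 and PRPS10 followed those of other features at the same place (described below), with Pearson correlations of 0.92 and 0.86. For PRPL17, PRPL34 and PRPS6 these were 0.02, -0.72 and 0.34. PRPL5 and PRPS10 deviated with a correlation of -0.92, and of 0.04 with place taken out. For PRPL17 and PRPS10 it was -0.84 and then -0.97. For PRPL17 and PRPS6 it was -0.92 and then -0.79, for PRPS6 and PRPS10 0.82 and then 0.87. For PRPL34 and PRPS6 it was 0.08 and then 0.73, and not all of the 10 pairs are given here. All correlations in this paragraph rest on 6 replicate values less their group means, which is few, and they were not tested. Over the 5 genes the median difference within technical pairs was 0.02 to 0.14 on the log2 scale, and the ranges between the replicates of a group were 0.16 to 0.67. For each gene this median was smaller than the range in either group. The largest technical difference of a gene, 0.17 to 0.60, was above the range of the PSII_DCMU replicates for PRPL5, PRPL34 and PRPS10.

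Changes on this array followed the place of a feature within runs of consecutive feature numbers of equal length, which explained 32.7% of the variance of all log2 changes (adjusted for the number of places). PRPL5 stood apart from the features at its place: the 14 others had a median change of -0.43, with 1 called higher and 6 lower. With place taken out of every replicate its change was 0.96 ± 0.0981 (limma adjusted p = 0.000496). PRPL17 stood close to the 10 others at its place, whose median was -0.59, with 6 called lower and 1 higher. Its change with place taken out was -0.30 ± 0.151 (limma adjusted p = 0.137), and with brightness taken out as well it was -0.24 ± 0.152 (adjusted p = 0.229). PRPS6, among 9 others with a median of 0.13, 4 called higher and 1 lower, moved to -0.90 ± 0.180 with place taken out (limma adjusted p = 0.00582). The correction takes out the mean at a place, the gene itself included, and not the median given here. Mean and median can differ where a few features changed strongly, as AT5G13260 did at the place of PRPS6 (1.81). The corrected change of PRPL34 was 0.30 ± 0.146 and that of PRPS10 -0.18 ± 0.116, neither past the threshold. With brightness taken out as well they were 0.03 ± 0.184 and -0.31 ± 0.124, again not past it. With place taken out, PRPL5 and PRPS6 were therefore the called members and PRPL17 was not. The correction can itself create calls: it called 98 of 141 features whose 12 samples were all under the floor.

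**Figure D4:**
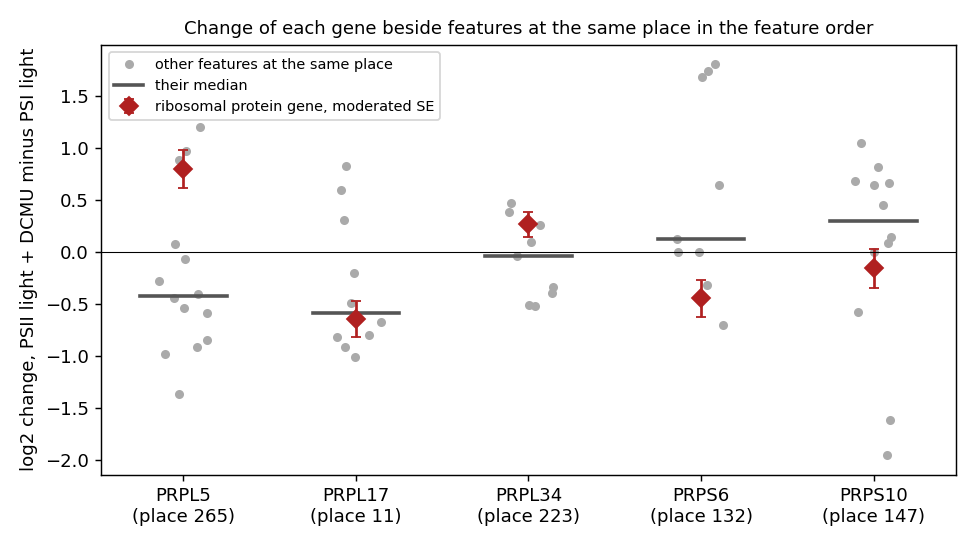
Log2 change (vertical axis, PSII light with DCMU minus PSI light) of each gene with its moderated SE, beside the other features at the same place in the runs of feature numbers and their median. PRPL5 is well above the median of its place (-0.43), PRPL17 is next to that of its own (-0.59), and PRPS6 is below a median of 0.13.

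Other genes of plastid protein synthesis were looked up in lists of locus codes. Of 41 listed nuclear genes for plastid ribosomal proteins, 6 had a feature of their own, of which 1 rose, 1 fell and 4 did not pass. The sixth was AT5G65220, for the large-subunit protein L29, which was listed at 0 in all 12 samples and so gave no level. None of 14 listed plastid translation factors, 15 genes for plastid ribosome assembly and ribosomal RNA processing and 20 genes for plastid transcription had a feature of its own, and 0 other named features carried the words ribosomal protein in the reference table's names, which seldom give a product.

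By likeness of their log2 intensities over the 12 samples (Pearson correlation, given as a description, the samples sharing technical pairs and the group difference), the genes nearest to PRPL5 were AT3G22150, for a pentatricopeptide repeat protein (0.97), AT1G49850 (0.96) and MAMI (AT5G54110, 0.96). Their log2 changes were 1.88, 0.71 and 1.24. Nearest to PRPL17 were CHL (AT3G47860), the chloroplast lipocalin gene (0.96), AT2G47390 (0.96) and AT4G20760 (0.96), with changes of -0.84, -0.52 and -0.71. PRPS6 was nearest to AT2G27680 (0.93), AT3G09080 (0.93) and AT4G08280 (0.93). The likeness was lower for PRPL34, with AT4G39570 (0.86), AT5G01860 (0.84) and AT5G44520 (0.82), and lowest for PRPS10, with AT3G56500 (0.72), AT4G22650 (0.71) and AT4G20300 (0.69). None of these 15 genes was another of the 5 ribosomal protein genes, which says little, since the search ran over 692 single-gene features.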

How the data were processed

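Per the labels, total RNA of 6 samples per group was measured on an expression array. The deposited table holds 1 linear intensity per feature and sample; how the authors made it is not stated in the labels or the table. The means of the columns differed from their average by at most 3.25%, the medians by up to 11.9%. By the rule used (means or medians within 10%), met by the means only, the values were kept as deposited. Intensities below their 1st percentile above 0 (0.0431) were set to it before log2. Genes were named through the platform annotation, and 690 of 692 single-gene features matched the TAIR10.1 gene table by identifier. A feature may detect related genes. Technical pairs were averaged on the log2 scale, and on the linear scale for printed intensities.

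The 3 against 3 replicates were fitted with limma 3.58.1 in R 4.3.3 (lmFit, eBayes, two-sided, no block, Benjamini-Hochberg over 3439 features, threshold 0.05), and the fit was tested on simulated data. Figures used matplotlib 3.10.9 in Python 3.11.15. Pair numbers link the groups: replicates with the same number deviated from their group means with correlations of 0.29 to 0.36, and those with different numbers with -0.33 to 0.00. This link comes from the data and the titles' numbers. The second range adds no separate evidence: deviations from group means balance out, so it is negative on average where the first is positive. Place was taken out as the mean deviation at each place, brightness as that of 10 classes. The named genes were the 5 members, all measured plastid ribosomal protein genes, from each other list the 2 with the smallest p and the largest change (0 were measured), and the 3 nearest single-gene features per member. Members, lists and alternatives were chosen with earlier results of these data known. Sequences and promoter motifs were not analysed here.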

Additional observations from a re-analysis of the deposited data

How the results depend on the processing

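The directions of PRPL5, PRPL17, PRPS6 and PRPS10 were the same under all 15 alternatives, and that of PRPL34 under 14. Several of these alternatives could not move the change of any of the 5 genes, so their directions there were fixed. The higher floor, the 5th percentile of 0.139, lay under all samples of the 5 genes. Leaving out dim features, the pair-number block and the fit to 12 samples keep each change by design. Quantile normalization gave -0.31 for PRPL34, against 0.26, took PRPL5 to 0.49 and out of its call, and brought PRPS6 (-0.96) and PRPS10 (-0.59) past the threshold. Centring on the median brought PRPS6 past it (-0.67), and so did the 12 samples with the technical pair as a random block (-0.45, adjusted p = 0.0240, limma). The latter fit takes its degrees of freedom from 12 samples, though they form 3 replicates per group. Taking out place, or place and brightness, ended the call of PRPL17 (-0.30 and -0.24) and brought PRPS6 past the threshold (-0.90 and -1.10). Leaving out 1 replicate gave 0.62 to 0.96 for PRPL5, -0.78 to -0.51 for PRPL17, 0.19 to 0.37 for PRPL34, -0.59 to -0.33 for PRPS6 and -0.35 to -0.035 for PRPS10, and it leaves fewer samples for the test. The cause of the other shifts was not tested. With the pair number as a replicate block the changes were as reported, no call of the 5 changed (PRPL5 adjusted p = 0.0320, PRPL17 0.00953, PRPS6 0.0541), and 1656 features were called against 1667. Over all alternatives 1138 to 1913 features were called. The share of higher calls was 54.5% as deposited, 41.6% after quantile normalization and 40.9% with median centring. The lowest sample of the 5 genes was 5.21 times the floor. The background level is unknown, which limits the folds of the dimmer genes.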
